A study of Mus musculus with 16 samples.

Results

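The genes described here are 40 genes that mark or equip macrophages, measured in femurs and white fat from mice of the line AEA001 and from wild types. The members are a list of names that was chosen with earlier results of these data known. Every probe that the platform annotation gives to one of them was taken. Shares of members set beside shares of all genes are therefore descriptions. Of the 40 genes, 37 had a probe, with 55 of the 25697 probes between them, and Cd68, Csf1r and Mpeg1 are not analysed here. The members were divided by textbook role into 14 general macrophage and myeloid genes, 16 genes of resident tissue macrophages and 10 genes of recruited, activated or lipid-laden macrophages. The roles overlap in biology, and several members are also made by other myeloid cells.

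AEA001 is a line derived by treatment with the mutagen ENU and carries a mutation in Ednra, the gene of an endothelin receptor. The series presents it as a model for osteoporosis. Mutants and wild types were all of strain C3HeB/FeJ and 17 weeks old, and per the design text the mutants were male. The 16 arrays comprised 4 mutant femurs, 4 wild-type femurs, 4 mutant white adipose samples and 4 wild-type white adipose samples, with both tissues taken from each of 8 animals. The labels give neither the zygosity nor the fat depot, and the transcript of Ednra is not analysed here. Intensity is the brightness of a probe after the authors' normalization, and values under 16 were raised to 16 before log2 was taken. Precision is limited by the number of arrays, and p-values measure the spread between these animals.

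Macrophages settle in tissues before birth or arise later from blood monocytes, and they clear dying cells, debris and microbes. In white fat, resident cells that carry the mannose receptor lie along vessels, while recruited cells surround dying adipocytes, take up lipid and switch on lysosomal and lipid-sensing genes. In bone marrow, resident macrophages clear expelled red cell nuclei and recycle iron, and monocytes, osteoclasts and neutrophils share many of the same transcripts.

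Some arrays stood apart in ways that touch the results below. Adipoq, the adipocyte hormone adiponectin, read 1551 to 2679 in femurs and 15666 to 22610 in white adipose arrays. Bglap, the bone protein osteocalcin, read 11337 to 15767 in femurs. It read at most 0 in 7 of the 8 white adipose arrays and 242.4 in mutant white adipose replicate 2. That array also held S100a8, a neutrophil transcript, at 9828, against 423.8 to 613.9 in the other mutant white adipose arrays and 435 to 1485 in the wild types. The animal identifiers of wild types 1 and 2 lay 133 and 131 above the lowest one, while those of the other 6 animals lay 0 to 43 above it. Wild type 3 and mutant 4 carry the same identifier in the labels. What the identifiers stand for is not given in the labels, and results are therefore also given without these animals.

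The genotype effect on macrophage genes averaged in opposite directions in femur and white adipose tissue. In femur, 28 of the 33 measured members averaged higher in mutants, and in white adipose tissue 29 of the 32 measured members averaged lower in mutants. No member passed an adjusted p of 0.05 in either tissue alone. The femur effect minus the white adipose effect was above 0 for all 31 members measured in both tissues. By the brightest probe it passed for 7 of them: Lyz2, C1qc, Mrc1, Mgl2, Vsig4, Ms4a7 and Cd14. Of all 8970 genes, 3.26% passed in that direction. A kept probe other than the brightest passed for Adgre1, Clec7a and Lyz1, which are not among the 7. None of the 7 passed without any 1 of mutants 1 to 4, without wild type 1 or wild type 2, or with no filter on dim probes. Over all probes, calls fell from 929 to between 0 and 8 in these omissions and to 178 with no filter. At an unadjusted p under 0.05, the femur effect exceeded the white adipose effect for 23 of the 31 members, against 12.3% of all genes. The median difference was 0.95 on the log2 scale over the members and -0.07 over all genes. These are bulk samples, in which fewer macrophages and less RNA per macrophage cannot be told apart.

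**Figure D1:**
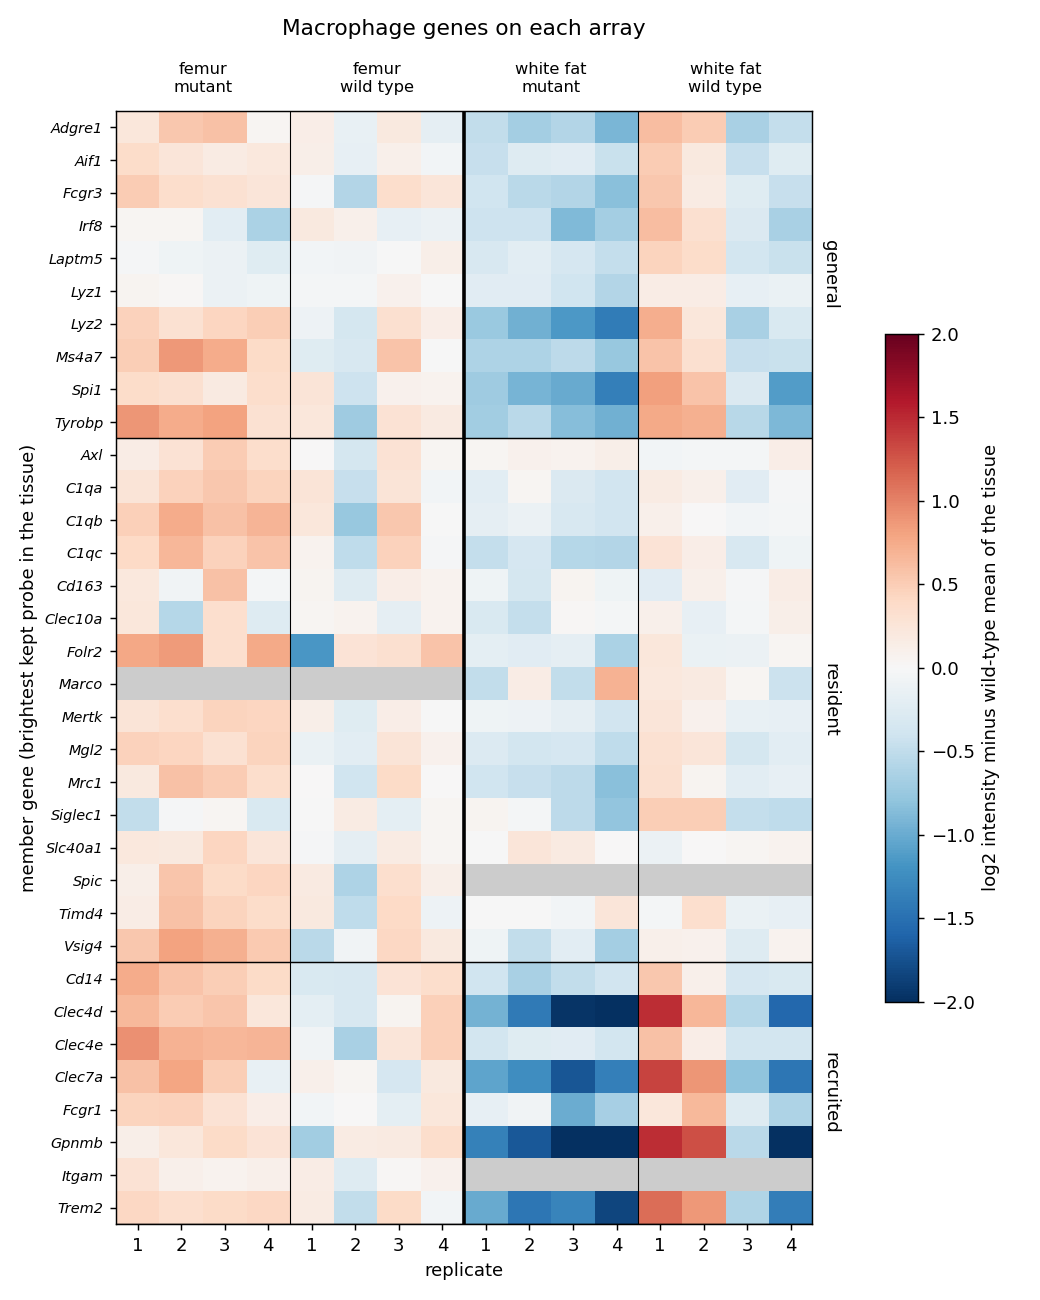
Log2 intensity of each measured member on each of the 16 arrays minus the wild-type mean of the same tissue, with mutants left of wild types in each tissue (replicates 1 to 4). Grey marks a gene not kept in that tissue, and values beyond 2 or -2 take the end colours. Mutant femurs are mostly above the wild-type mean and mutant white adipose arrays mostly below it, and wild types 1 and 2 are the high wild types in white adipose tissue.

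Lyz2 encodes the lysozyme of macrophages and neutrophils, which cleaves bacterial cell walls. It read 23714, 21296, 23157 and 24258 in mutant femurs, against 16039, 13426, 21499 and 18788 in wild-type femurs. In white adipose tissue it read 7468, 6367, 5598 and 4700 in mutants, against 20603, 14480, 7951 and 10083 in wild types. All mutant white adipose arrays were below all wild types, while in femur wild type 3 lay just above the lowest mutant. The log2 effect was 0.43 ± 0.14 (SE) in femur and -1.06 ± 0.29 in white adipose tissue. The difference of 1.49 ± 0.34 passed at an adjusted p of 0.0307 by limma.

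C1qc encodes a chain of C1q, the recognition molecule that starts the classical complement pathway and that macrophages make in large amounts. Its readings were 1684, 2025, 1759 and 1908 in mutant femurs, against 1339, 904.4, 1763 and 1266 in wild-type femurs. Its readings in white adipose tissue were 3054, 3355, 2868 and 2820 in mutants, against 5142, 4654, 3407 and 3998 in wild types. Femurs overlapped through wild type 3, and white adipose arrays did not overlap. The femur effect minus the white adipose effect was 1.02 ± 0.24 (adjusted p = 0.0328). Mrc1, the mannose receptor that takes up glycoproteins, read 1778, 2316, 2198 and 1985 in mutant femurs, against 1556, 1172, 2030 and 1555 in wild-type femurs. Mutant white adipose arrays held it at 2115, 2008, 1937 and 1550, against 3476, 2873, 2403 and 2468 in wild types. Every mutant white adipose array again lay below every wild type, and wild-type femur 3 again lay among the mutants. The Mrc1 difference was 0.96 ± 0.24 (adjusted p = 0.0334).

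Vsig4 encodes a complement receptor of resident macrophages that binds particles coated with C3 fragments. It read 401.4, 485.2, 455.2 and 396.5 in mutant femurs, against 191.4, 262.8, 367.4 and 318.6 in wild-type femurs. In white adipose tissue its readings were 519.2, 391.5, 479.4 and 345.5 in mutants, against 590.0, 586.4, 463.8 and 579.6 in wild types. The femurs were separated by genotype and the white adipose arrays overlapped only through wild type 3. The difference was 1.01 ± 0.26 (adjusted p = 0.0381). Mgl2, a lectin that binds galactose-type sugars, read 190.7, 186.3, 171.2 and 187.6 in mutant femurs, against 125.5, 119.2, 164.8 and 146.7 in wild-type femurs. Mutant white adipose arrays had 682.2, 635.5, 653.8 and 579.6, against 1020, 976.7, 648.8 and 713.4 in wild types. Femurs did not overlap, and in white adipose tissue wild type 3 lay among the mutants. The Mgl2 difference was 0.79 ± 0.20 (adjusted p = 0.0375).

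Ms4a7, a membrane protein of the MS4A family found on macrophages, read 367.2, 472.2, 435.3 and 340.2 in mutant femurs, against 219.3, 209.1, 387.3 and 257.4 in wild-type femurs. In white adipose tissue it read 289.3, 290.5, 309.1 and 262.1 in mutants, against 659.8, 554.9, 323.3 and 327.3 in wild types. Wild-type white adipose arrays 3 and 4 stood just above the highest mutant, and arrays 1 and 2 made most of the gap. Its difference was 1.25 ± 0.33 (adjusted p = 0.0402). Cd14, the coreceptor for bacterial lipopolysaccharide, read 367.4, 326.6, 311.8 and 287.7 in mutant femurs, against 179.3, 177.2, 265.2 and 280.7 in wild-type femurs. White adipose readings were 417.5, 353.1, 390.0 and 423.7 in mutants, against 803.4, 591.3, 437.9 and 444.7 in wild types. Cd14 overlapped in neither tissue, with narrow gaps to wild types 3 and 4 in both. Its difference was 1.03 ± 0.27 (adjusted p = 0.0403).

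**Figure D2:**
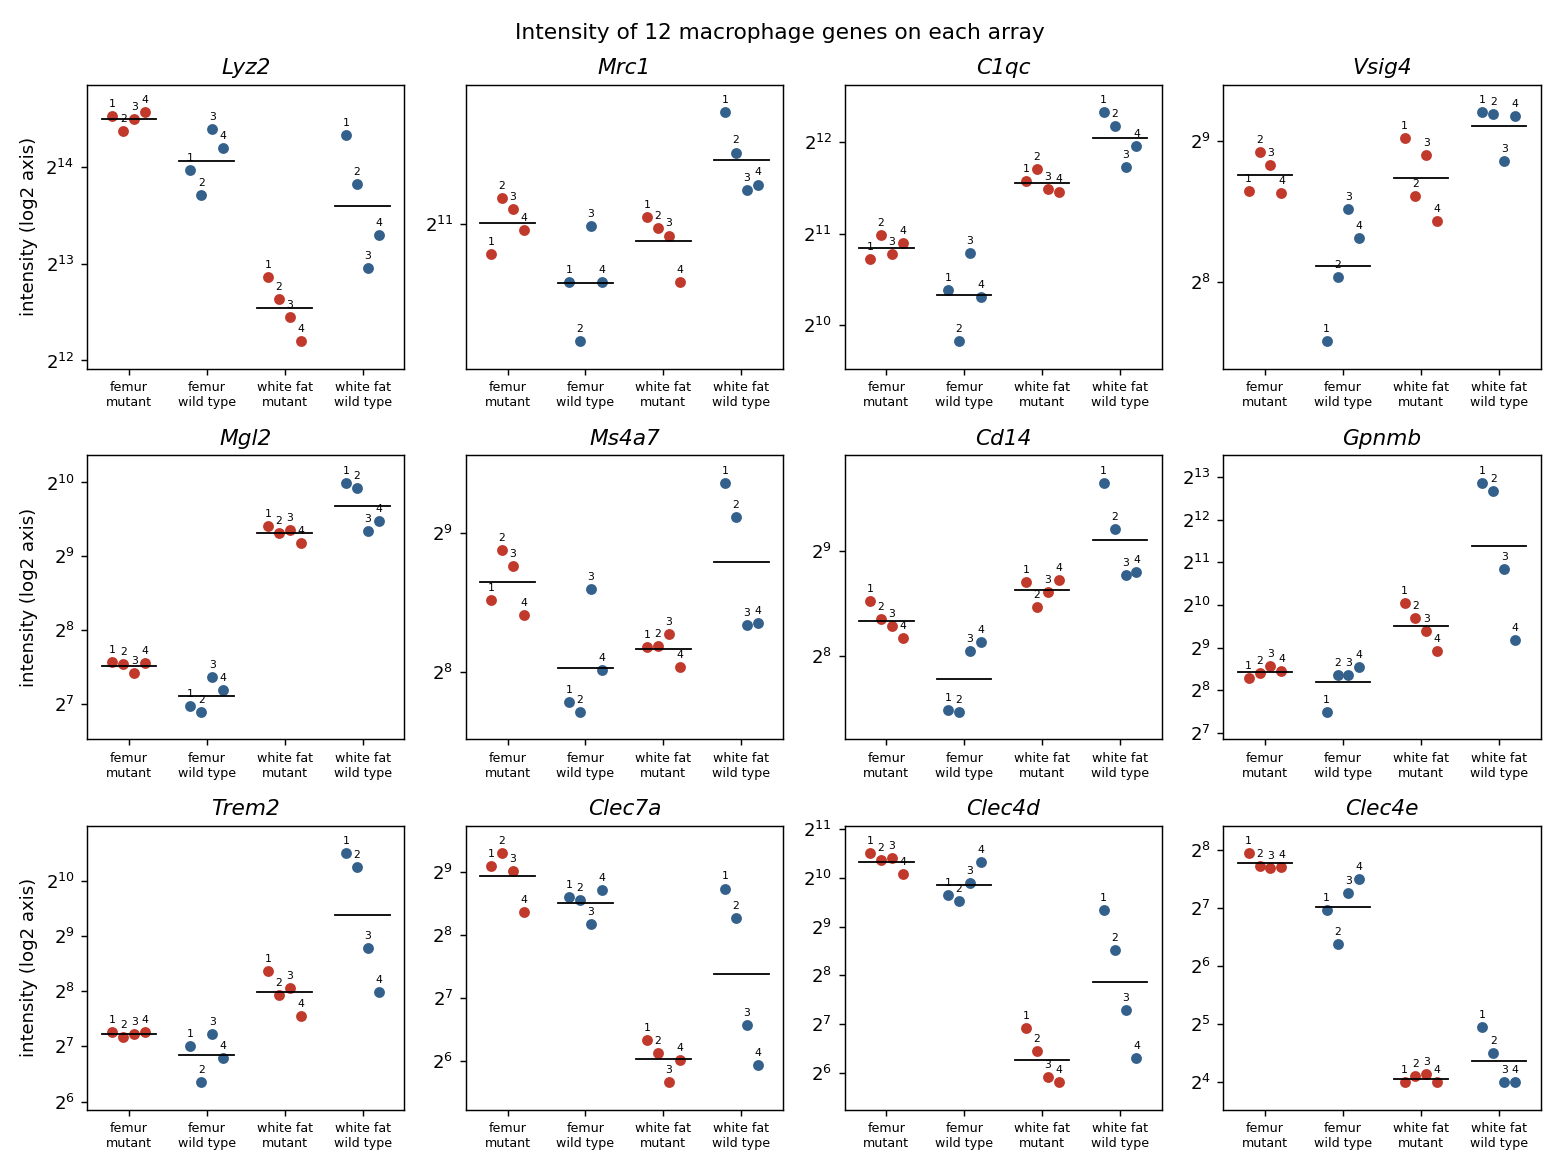
Intensity of 12 members on each array, on a log2 axis of its own in each panel, with values under 16 drawn at 16. Points are single arrays numbered by replicate (red, mutant; blue, wild type), bars are means of log2 values, and each tissue shows its brightest probe, which for Clec7a is a different probe in femur and white adipose tissue. The first 7 panels are the members that passed for the difference between tissues by their brightest probe, and the last 5 are genes of recruited macrophages.

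The upstream sequences of 6 of these 7 genes are shown because the members shared their direction and because the transcription factor PU.1, encoded by the member Spi1, binds purine-rich boxes with a GGAA core at many macrophage promoters. Each line gives the 250 bases before the gene's start from RefSeq on build GRCm38.p6, 5′ to 3′ along the gene's strand. Capitals mark the letters GAGGAA or AGGAAG on either strand (TTCCTC or CTTCCT in the sequence as printed), where matches of the 2 strings may overlap.
Lyz2, chr10:117282273-117282522, minus strand: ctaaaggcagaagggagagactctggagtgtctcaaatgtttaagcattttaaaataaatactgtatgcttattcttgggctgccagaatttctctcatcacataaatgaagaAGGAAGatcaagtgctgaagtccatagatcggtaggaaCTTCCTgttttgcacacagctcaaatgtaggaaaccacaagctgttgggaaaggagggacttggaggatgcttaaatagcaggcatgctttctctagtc
C1qc, chr4:136892915-136893164, minus strand: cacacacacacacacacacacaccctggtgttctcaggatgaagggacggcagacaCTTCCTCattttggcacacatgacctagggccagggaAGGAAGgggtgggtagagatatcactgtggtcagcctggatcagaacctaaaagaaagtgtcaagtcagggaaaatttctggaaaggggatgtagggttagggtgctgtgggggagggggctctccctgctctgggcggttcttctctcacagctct
Mrc1, chr2:14229164-14229413, plus strand: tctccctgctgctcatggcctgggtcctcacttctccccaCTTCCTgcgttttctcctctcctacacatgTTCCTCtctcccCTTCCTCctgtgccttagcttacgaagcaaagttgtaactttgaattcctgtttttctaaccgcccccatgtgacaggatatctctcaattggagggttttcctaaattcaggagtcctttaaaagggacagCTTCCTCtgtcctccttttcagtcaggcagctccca
Mgl2, chr11:70130107-70130356, plus strand: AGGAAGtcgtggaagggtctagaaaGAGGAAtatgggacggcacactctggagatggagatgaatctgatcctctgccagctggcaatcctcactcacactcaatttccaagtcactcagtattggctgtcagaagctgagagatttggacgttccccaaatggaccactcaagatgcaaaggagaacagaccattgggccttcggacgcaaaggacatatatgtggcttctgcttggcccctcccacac
Vsig4, chrX:96293439-96293688, minus strand: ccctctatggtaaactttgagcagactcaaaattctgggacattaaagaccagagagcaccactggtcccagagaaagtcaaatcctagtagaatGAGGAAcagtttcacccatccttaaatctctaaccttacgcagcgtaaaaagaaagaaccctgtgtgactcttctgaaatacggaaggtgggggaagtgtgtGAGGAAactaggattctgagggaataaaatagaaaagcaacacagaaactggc
Ms4a7, chr19:11336147-11336396, minus strand: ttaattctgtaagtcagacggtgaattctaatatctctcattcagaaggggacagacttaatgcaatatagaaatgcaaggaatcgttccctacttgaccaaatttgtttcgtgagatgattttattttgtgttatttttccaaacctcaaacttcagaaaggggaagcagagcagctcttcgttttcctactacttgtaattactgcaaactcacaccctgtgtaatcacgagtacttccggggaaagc

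A match was present in 5 of these 6 windows, and the window of Ms4a7 held neither string. Those of Lyz2 lay at bases 137 to 132 and 99 to 94 before the start, and those of Vsig4 at bases 155 to 150 and 53 to 48. Of the 40 members, 30 had an upstream window, and 22 of these held at least 1 of the 2 strings, against 39.0% of all 27025 windows. GAGGAA was present in 17 of the 30 and in 23.1% of all windows, and AGGAAG in 17 of the 30 and in 29.2% of all windows. The 2 strings were chosen after shares of several forms of the box had been seen, and the reference sequence is not that of C3HeB/FeJ. A match describes letters, and binding was not measured.

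In femur, macrophage genes of every role averaged higher in mutants by a modest amount. The median effect was 0.37 over the 33 members and -0.03 over all 9789 genes. None of the 33 passed an adjusted p of 0.05 by limma, as none of all genes did (0%). At an unadjusted p under 0.05, 18 members were higher and none lower, against 6.53% of all genes higher. Mutant and wild-type arrays did not overlap for 9 members, all higher in mutants, against 4.23% of all genes: Aif1, C1qa, Cd14, Clec4e, Mertk, Mgl2, Slc40a1, Tyrobp and Vsig4. The mean log2 intensity over the members was 9.34 to 9.48 in mutant femurs and 8.83 to 9.28 in wild-type femurs, with wild type 2 the lowest and wild type 3 the highest of the wild types.

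Resident genes were higher in 13 of 15 in femur, with a median of 0.39, and 8 had an unadjusted p under 0.05. Mgl2 had the smallest p of all members in femur, with an effect of 0.41 ± 0.12 (adjusted p = 0.183), followed within the resident genes by Mertk and Vsig4. Mertk, a receptor that engages dying cells for uptake, read 393.7, 419.2, 451.6 and 447.1 in mutant femurs, against 359.8, 280.8, 362.1 and 328.1 in wild-type femurs. All 4 mutants were above all wild types, and the effect was 0.37 ± 0.11 (adjusted p = 0.184). Vsig4 had an effect of 0.64 ± 0.19 (adjusted p = 0.188). The 3 chains of C1q were 0.43 ± 0.16 for C1qa, 0.62 ± 0.24 for C1qb and 0.52 ± 0.18 for C1qc. C1qb read 1477, 1768, 1591 and 1703 in mutant femurs, against 1241, 629.7, 1538 and 1052 in wild-type femurs. The low reading of wild type 2 widened the C1qb gap, and wild type 3 lay above the lowest mutant.

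Slc40a1 and Spic, which serve iron recycling in macrophages, averaged higher in mutant femurs as well. Slc40a1, the iron exporter ferroportin, read 10394, 10317, 12141 and 10636 in mutant femurs, against 8846, 7970, 10083 and 9254 in wild-type femurs, an effect of 0.27 ± 0.10 (adjusted p = 0.25). Spic, a transcription factor of iron-recycling macrophages, had an effect of 0.37 ± 0.20 (adjusted p = 0.387), and its arrays overlapped. Timd4, a receptor for phosphatidylserine on dying cells, had 0.39 ± 0.19, and Cd163, the haemoglobin scavenger receptor, had 0.17 ± 0.16. Folr2, a folate receptor, had 0.68 ± 0.34 and Axl, a receptor kinase close to Mertk, 0.33 ± 0.14. Siglec1, a lectin for sialic acids, and Clec10a, a sugar-binding lectin close to Mgl2, were the 2 resident genes that averaged lower, by -0.19 ± 0.14 and -0.07 ± 0.20.

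All 8 measured recruited genes averaged higher in mutant femurs, with a median of 0.41, and 5 had an unadjusted p under 0.05. Clec4e, a lectin that senses mycobacterial glycolipid and dead cells, read 245.8, 212.0, 207.1 and 209.7 in mutant femurs, against 124.7, 83.3, 153.7 and 180.5 in wild-type femurs. The groups did not overlap, the mutants other than mutant 1 were tightly spaced, and the effect was 0.74 ± 0.22 (adjusted p = 0.184). Cd14 had an effect of 0.55 ± 0.17 (adjusted p = 0.203). Clec7a, a receptor for fungal glucans, gave 0.43 ± 0.20 by its brightest probe and 0.99 and 1.12 by its other 2 kept probes. Trem2 had 0.39 ± 0.17, and Fcgr1, the high-affinity receptor for IgG, 0.33 ± 0.12. The smallest effects were those of Itgam, an integrin chain of myeloid cells (0.14 ± 0.11), and Gpnmb, a lysosomal glycoprotein of lipid-laden macrophages (0.24 ± 0.21).

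Among general genes, 7 of 10 averaged higher in mutant femurs, with a median of 0.33, and 5 had an unadjusted p under 0.05. Ms4a7 had an effect of 0.62 ± 0.20 (adjusted p = 0.207). Tyrobp, the signalling adaptor of Trem2 and other activating receptors, read 3125, 2832, 2958 and 2107 in mutant femurs, against 1989, 1044, 2088 and 1935 in wild-type femurs. Its effect of 0.68 ± 0.23 (adjusted p = 0.216) was the largest of the general genes, with a narrow gap between mutant 4 and wild type 3. Fcgr3, a low-affinity receptor for IgG, read 3538, 3187, 3062 and 2955 in mutant femurs, against 2450, 1664, 3187 and 2937 in wild-type femurs, and overlapped. Adgre1, the classical macrophage surface marker, had an effect of 0.35 ± 0.15, and Spi1, the gene of PU.1, an effect of 0.30 ± 0.14. Irf8, a transcription factor of monocytes and dendritic cells, averaged lower by -0.19 ± 0.17, and Laptm5, a lysosomal membrane protein of blood cells, by -0.12 ± 0.09.

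Markers of other blood cells were also shifted in femur. The mean log2 intensity of 14 neutrophil markers was 12.23 to 12.54 in mutant femurs and 11.77 to 12.25 in wild-type femurs, and 13 of the 14 averaged higher in mutants with a median of 0.31. Wild type 2 was the lowest array for the neutrophil markers as for the macrophage genes. Retnlg, a neutrophil transcript, read 15383 to 18788 in mutant femurs and 9442 to 13345 in wild-type femurs. The 7 measured red cell precursor markers ran the other way, at 11.27 to 11.57 in mutant femurs and 11.59 to 11.76 in wild-type femurs. The 6 osteoclast markers overlapped between genotypes, at 8.89 to 9.32 in mutants and 8.85 to 9.23 in wild types. The 6 measured dendritic cell markers overlapped too, at 5.52 to 5.71 in mutants and 5.50 to 5.68 in wild types. The part of these other cells in the macrophage gene shift was not tested.

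**Figure D3:**
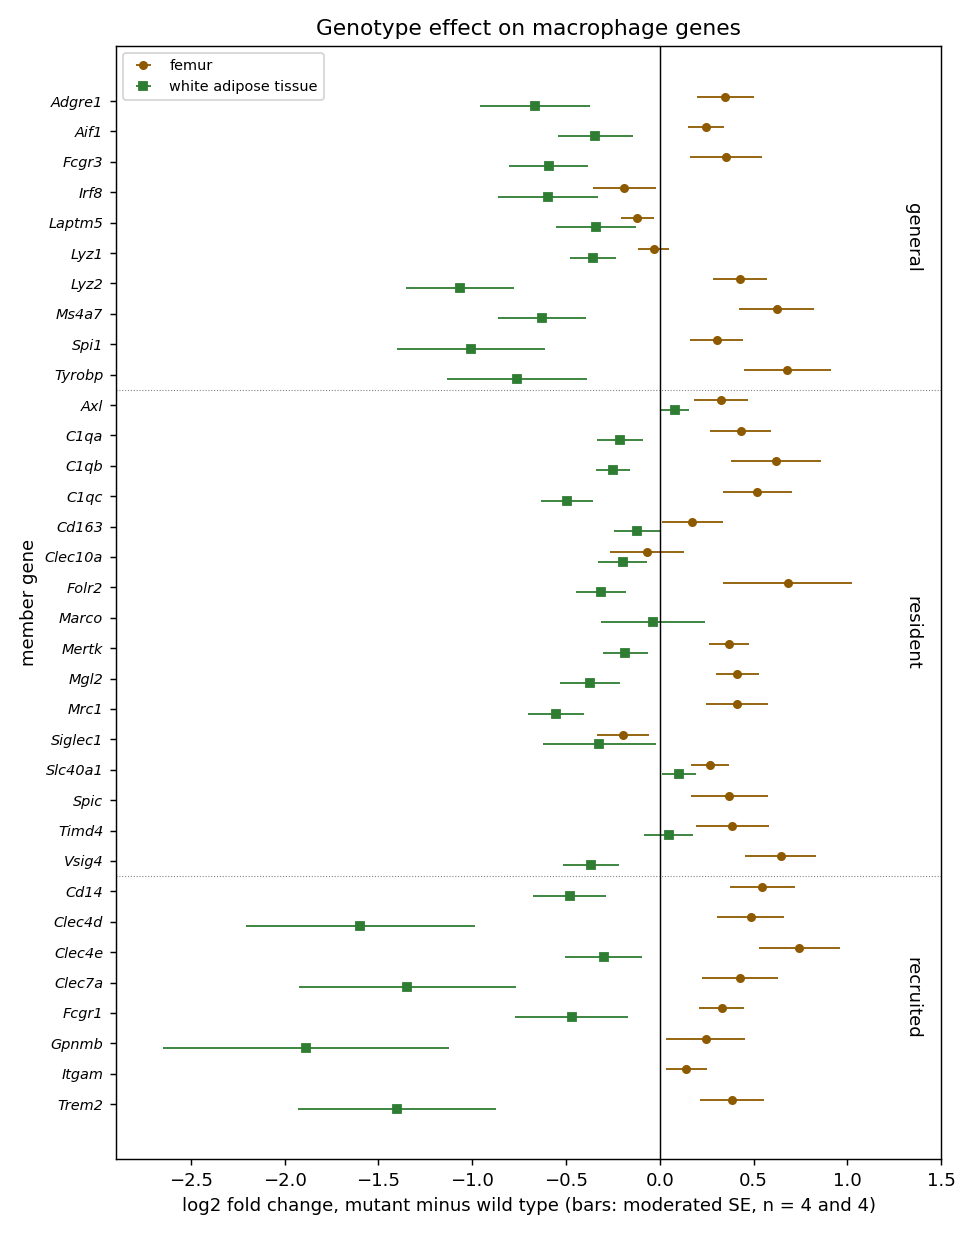
Genotype effect on each measured member, as log2 fold change of mutant minus wild type with its moderated standard error (4 arrays a group), in femur (brown circles) and white adipose tissue (green squares). Femur effects lie mostly between 0 and 0.74, and white adipose effects reach -1.89 among genes of recruited macrophages.

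In white adipose tissue the recruited genes had the lowest values relative to wild type, and resident genes the median nearest to 0. The median effect was -0.37 over the 32 members and 0.03 over all 9878 genes. No member passed an adjusted p of 0.05 by limma, and no gene by its brightest probe did (0%). At an unadjusted p under 0.05, 16 members were lower and none higher, against 12.2% of all genes lower. For 8 members the mutant arrays lay below all wild types, against 7.37% of all genes: C1qb, C1qc, Cd14, Folr2, Lyz1, Lyz2, Mrc1 and Ms4a7. The mean log2 intensity over the 32 members was 8.50 to 8.78 in the 4 mutants, against 9.64, 9.49, 8.88 and 8.74 in wild types 1 to 4. Wild types 3 and 4 were thus close to the mutants, and wild types 1 and 2 stood above all other arrays.

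All 7 measured recruited genes averaged lower in mutant white adipose tissue, with a median of -1.35, and 5 had an unadjusted p under 0.05. The genes named in the next sentences had the largest effects of the members and were chosen after their values were seen. Gpnmb read 1052, 825.5, 668.7 and 482.0 in mutants, against 7468, 6572, 1845 and 575.6 in wild types, an effect of -1.89 ± 0.76 (adjusted p = 0.17). By this probe wild types 1 and 2 were far above the highest mutant, and wild type 4 lay among the mutants. The other kept Gpnmb probe was dimmer and did not overlap. It read 34.3, 28.5, 25.9 and 6.95 in mutants, against 996.5, 710.5, 97.1 and 40.1 in wild types (effect -3.18 ± 0.96). Trem2, the lipid-sensing receptor that signals through Tyrobp, read 331.7, 245.4, 266.4 and 186.7 in mutants, against 1445, 1217, 441.3 and 254.4 in wild types (effect -1.40 ± 0.53). Clec4d, a lectin that pairs with Clec4e, read 120.4, 87.0, 60.2 and 55.9 in mutants, against 649.9, 368.6, 156.4 and 78.7 in wild types (effect -1.60 ± 0.61). The same order was seen in Clec7a, at 80.6, 70.3, 50.7 and 64.7 in mutants, against 427.7, 308.3, 95.6 and 61.6 in wild types. By the brightest probe of each of these 4 genes, wild types 1 and 2 were the 2 highest arrays and wild type 4 fell within the range of the mutants.

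The recruited genes Itgam, Itgax and Msr1 were too dim to be tested in white adipose tissue. Itgam read 2.38 to 7.97 in mutants, against 27.6, 43.5, 8.29 and 11.4 in wild types. Itgax, an integrin chain of fat macrophages around dying adipocytes and of dendritic cells, read at most 9.59 in mutants, against 19.4, 23.1, 2.97 and -2.59 in wild types. Msr1, a scavenger receptor, was below 0 on all 16 arrays. Most of these readings are under 16, and no direction is given for the 3 genes. Clec4e exceeded 16 on 2 mutant and 2 wild-type arrays, so its effect of -0.30 ± 0.20 is near the floor.

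Among general genes, all 10 averaged lower in mutant white adipose tissue, with a median of -0.61, and 5 had an unadjusted p under 0.05. Lyz2 had the lowest effect of the general genes (-1.06 ± 0.29, adjusted p = 0.112). Spi1 read 44.6, 38.2, 36.5 and 28.2 in mutants, against 129.4, 108.8, 59.7 and 33.8 in wild types, an effect of -1.01 ± 0.39 (adjusted p = 0.162). Fcgr3 read 1201, 1086, 1049 and 884.9 in mutants, against 2289, 1776, 1333 and 1154 in wild types, an effect of -0.59 ± 0.21 (adjusted p = 0.143). Only wild type 4 overlapped with the mutants for Spi1 and Fcgr3. Adgre1 averaged 342.2 ± 41.5 in mutants and 582.3 ± 250.5 in wild types (SD, n = 4 each). Aif1, a calcium-binding protein of macrophages, gave -0.34 ± 0.20 by its brighter probe and 0.11 by its other kept probe, so its direction is uncertain.

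Resident genes averaged lower in 12 of 15 in mutant white adipose tissue, with a median of -0.21, and 6 had an unadjusted p under 0.05. Mrc1 had the smallest p of all members (effect -0.55 ± 0.15, adjusted p = 0.112), and C1qc the third smallest (-0.49 ± 0.14, adjusted p = 0.112). C1qb read 2245, 2333, 2017 and 1934 in mutants, against 2708, 2531, 2424 and 2465 in wild types, an effect of -0.25 ± 0.09 (adjusted p = 0.144). The shortfall of C1qb was small but present against all 4 wild types. Folr2 read 1037, 1017, 1052 and 767.6 in mutants, against 1389, 1083, 1097 and 1225 in wild types (effect -0.31 ± 0.13). Axl, Slc40a1 and Timd4 averaged slightly higher in mutants, at 0.08 ± 0.08, 0.10 ± 0.09 and 0.05 ± 0.13. Axl, which like Mertk mediates uptake of dying cells, averaged 5022 ± 118 in mutants and 4760 ± 306 in wild types, and Cd163 averaged 532.2 ± 60.8 in mutants and 578.9 ± 64.6 in wild types. Marco, a scavenger receptor, exceeded 16 on 2 mutant and 4 wild-type arrays, and its effect of -0.04 ± 0.28 is near the floor. The difference between resident and recruited genes is a description of medians and was not tested.

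The white adipose result rests on wild types 1 and 2. Without both, an alternative chosen after seeing the data, 24 of 32 members averaged lower, the median was -0.17 and 2 members had an unadjusted p under 0.05. The recruited median was then -0.22, the general median -0.16 and the resident median -0.10. Without mutant replicate 2, the array that stood apart in Bglap and S100a8, the median was -0.41 and 8 members had an unadjusted p under 0.05. The mean log2 intensity of 6 neutrophil markers was 10.09 in mutant 2 and 7.58 to 8.14 in the other 3 mutants, against 7.30 to 7.65 in wild types. That of 5 red cell precursor markers was 7.85 in mutant 2 and 6.55 to 6.58 in the other 3 mutants, against 5.81 to 6.35 in wild types. Mutant 2 was thus the highest array for both lists, and mutant 1 lay within the wild-type range for the neutrophil markers.

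Within the adipocyte and osteoclast lists, markers in white adipose tissue did not all move alike. All 5 red cell precursor markers and 5 of 6 neutrophil markers averaged higher in mutants. The mean over 8 adipocyte markers overlapped, at 11.02 to 11.13 in mutants and 10.82 to 11.15 in wild types. Of these 8 markers, 6 averaged higher in mutants and 2 lower. Within that list Lep, the adipocyte hormone leptin, read 11920 to 20603 in mutants and 20938 to 27335 in wild types (-0.66 ± 0.19, adjusted p = 0.112). Plin1, a coat protein of lipid droplets, read 2320 to 2579 in mutants and 1765 to 2206 in wild types (0.38 ± 0.10, adjusted p = 0.112). Of 5 osteoclast markers 3 averaged lower in mutants, and Ctsk, a protease also made by macrophages, read 433.1 to 603.1 in mutants and 660.2 to 1614 in wild types (means 515.2 and 1105, adjusted p = 0.12 by limma). Nfatc1, a transcription factor of osteoclast formation, read 452.7 to 533.8 in mutants and 582.7 to 660.9 in wild types (-0.34 ± 0.09, adjusted p = 0.112). Col1a1, a collagen chain from the osteoblast list, read 1495 to 2634 in mutants and 2702 to 4901 in wild types (-0.80 ± 0.25, adjusted p = 0.122). These 5 genes were among those of smallest p in their lists, and none overlapped between genotypes or passed the threshold. Of all 9878 genes, 843 were higher and 728 lower in mutants without overlap. The part of other cells in the macrophage result was not tested.

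The difference between tissues includes the white adipose effect, and its medians kept the order by role seen there. Its median was 0.60 over 14 resident genes, 0.98 over 10 general genes and 1.79 over 7 recruited genes. The femur medians of these roles were 0.39, 0.33 and 0.41. By the brightest probe, the largest differences were in recruited genes that did not pass. These were Clec7a at 2.34 ± 0.70 (adjusted p = 0.0525), Gpnmb at 2.13 ± 0.87 and Clec4d at 2.08 ± 0.69. Another kept probe gave 3.18 for Adgre1, 2.83 for Clec7a and 2.27 for Lyz1 (adjusted p = 0.0315, 0.0445 and 0.0257 by limma). In femurs these probes of Adgre1 and Lyz1 read at most 83.8 and 75.0. The remaining kept probe of each gene did not pass, at 1.18, 0.87 and 0.45. The smallest were in Siglec1 (0.13 ± 0.36), Clec10a (0.13 ± 0.26), Slc40a1 (0.17 ± 0.14) and Laptm5 (0.22 ± 0.25). Over single omissions of an animal, 17 to 24 members had an unadjusted p under 0.05 by limma. Leaving out wild type 3 gave 17 calls and leaving out wild type 4 gave 13, against 0 for each other animal. Over all probes, calls went from 929 to 2652 without wild type 3, 657 without wild type 4 and 0 to 8 for the others. Without both wild types 1 and 2, 29 of 31 members were above 0 with a median of 0.40, none passed and 8 had an unadjusted p under 0.05. The medians by role were then 0.34 for resident, 0.40 for general and 0.49 for recruited genes. Without wild type 3 and mutant 4, which carry 1 identifier, 11 passed.

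The lysozyme pair shows how far a probe can be read as a gene. Lyz1 is the lysozyme of intestinal Paneth cells and is nearly identical to Lyz2, so a probe may respond to both. Its brightest probe read 29121, 28636, 25789 and 26282 in mutant femurs, against 27335, 27335, 29639 and 27923 in wild-type femurs. The same probe read 19249, 19368, 17157 and 15054 in mutant white adipose tissue, against 25094, 24946, 20054 and 20603 in wild types, an effect of -0.36 ± 0.12 (adjusted p = 0.135). The other 2 Lyz1 probes read at most 75.0 in femurs and between 303.8 and 1854 in white adipose tissue. In femurs, where the bright probe was near its highest readings, these 2 probes were therefore near background. The 2 dim probes averaged 1.31 and 0.16 higher in mutant femurs on the log2 scale, while the bright probe gave -0.03 ± 0.08, so no direction is given for Lyz1 in femur. All 3 Lyz1 probes averaged lower in mutant white adipose tissue, by -0.36, -0.96 and -0.29. Of the 3 Lyz2 probes, the 2 kept in white adipose tissue were lower by -1.06 and -0.43, and all 3 were higher in mutant femurs, by 0.43, 0.55 and 0.27. Whether Lyz1 probes carried Lyz2 signal was not tested.

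**Figure D4:**
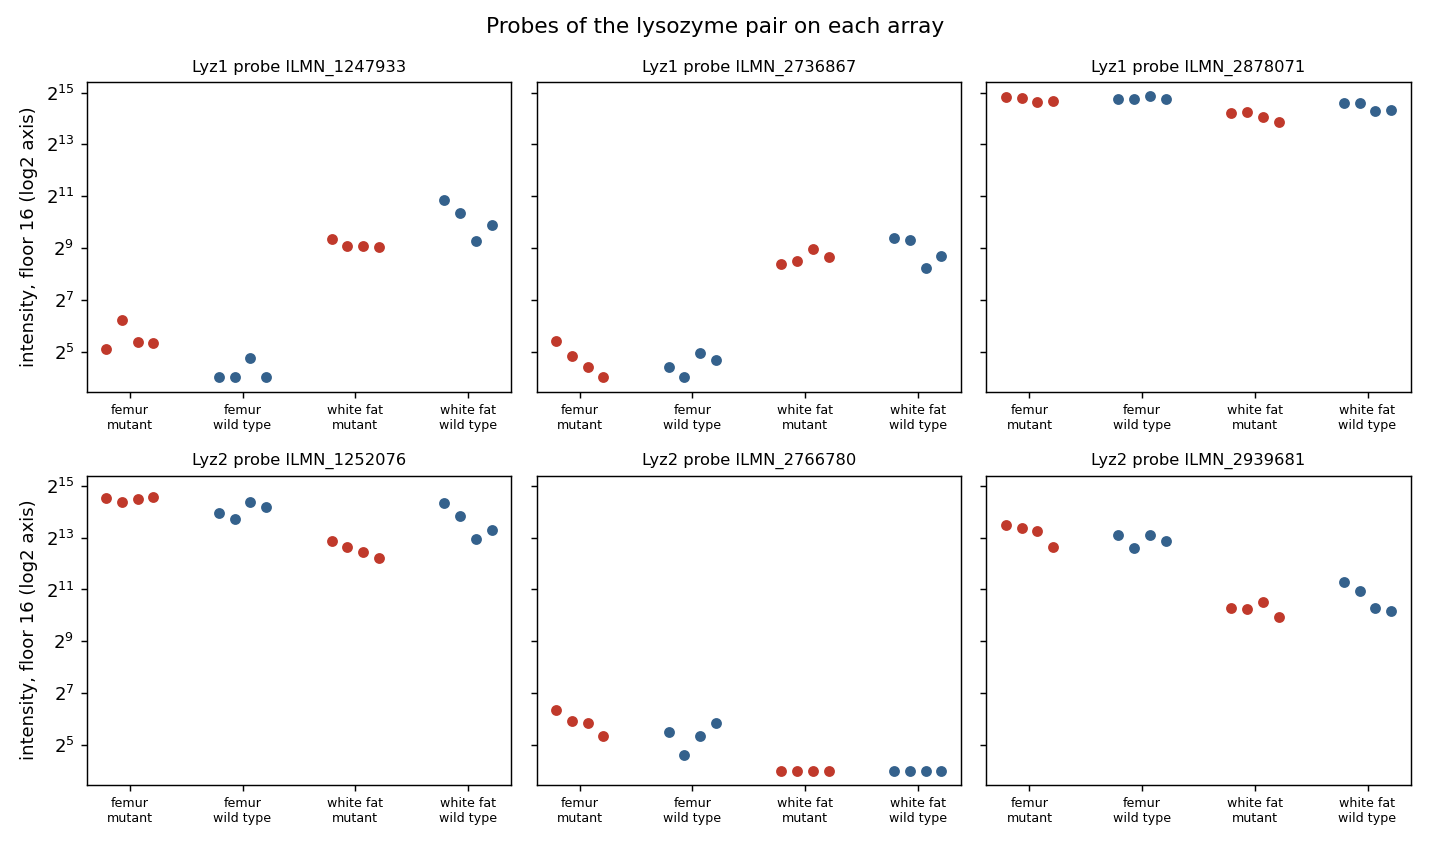
Intensity of the 3 Lyz1 probes (upper row) and 3 Lyz2 probes (lower row) on each array, on log2 axes with values under 16 drawn at 16, mutants in red and wild types in blue. The Lyz1 probe at the right is bright in both tissues, while the other 2 are bright in white adipose tissue only.

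Most macrophage genes differed in level between wild-type femur and wild-type white adipose tissue, in both directions. Of 34 members measured in either tissue, 12 were higher and 13 lower in wild-type femurs at an adjusted p under 0.05, against 35.8% and 37.7% of all 10691 genes. The share of members is near that of all genes. Of the 16 resident genes, 3 were higher in femur and 9 lower, while of 10 general genes 6 were higher and 1 lower. Folr2 averaged 59.3 ± 24.3 in wild-type femurs and 1198 ± 142 in wild-type white adipose tissue, 22.1-fold lower (log2 -4.46 ± 0.29, adjusted p = 9.81e-10). Gpnmb averaged 301.0 ± 83.3 in femurs and 4115 ± 3414 in white adipose tissue (log2 -3.21 ± 0.61, adjusted p = 1.99e-04), and its spread in fat is that of wild types 1 and 2. Mgl2 averaged 139.0 ± 20.8 in femurs and 839.6 ± 185.8 in white adipose tissue (log2 -2.58 ± 0.14, adjusted p = 1.66e-10).

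The 3 largest changes toward femur were those of Spic, Slc40a1 and Clec4e. Spic averaged 428.7 ± 110.4 in wild-type femurs and was under 16 on all white adipose arrays, so it was at least 26.0-fold higher against that floor. Spic and Itgam entered this contrast through femur alone, where they are bright, so no p is given for them, although both count among the 12. Slc40a1 averaged 9038 ± 879 in wild-type femurs and 1208 ± 67 in wild-type white adipose tissue, 7.46-fold higher (adjusted p = 4.98e-13). Clec4e averaged 135.5 ± 41.6 in wild-type femurs and 19.7 ± 8.9 in wild-type white adipose tissue (log2 2.67 ± 0.23, adjusted p = 2.87e-08), where 2 of its 4 arrays were raised to 16. In mutants the same contrast called 17 members higher in femur and 5 lower. Over all probes it called 11306 in mutants and 11422 in wild types, and the mutant calls over all genes were not split by direction. The authors' normalization set all 16 arrays to nearly 1 distribution (medians 25.16 to 25.35), so a change in total RNA between tissues is not visible in these levels.

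**Figure D5:**
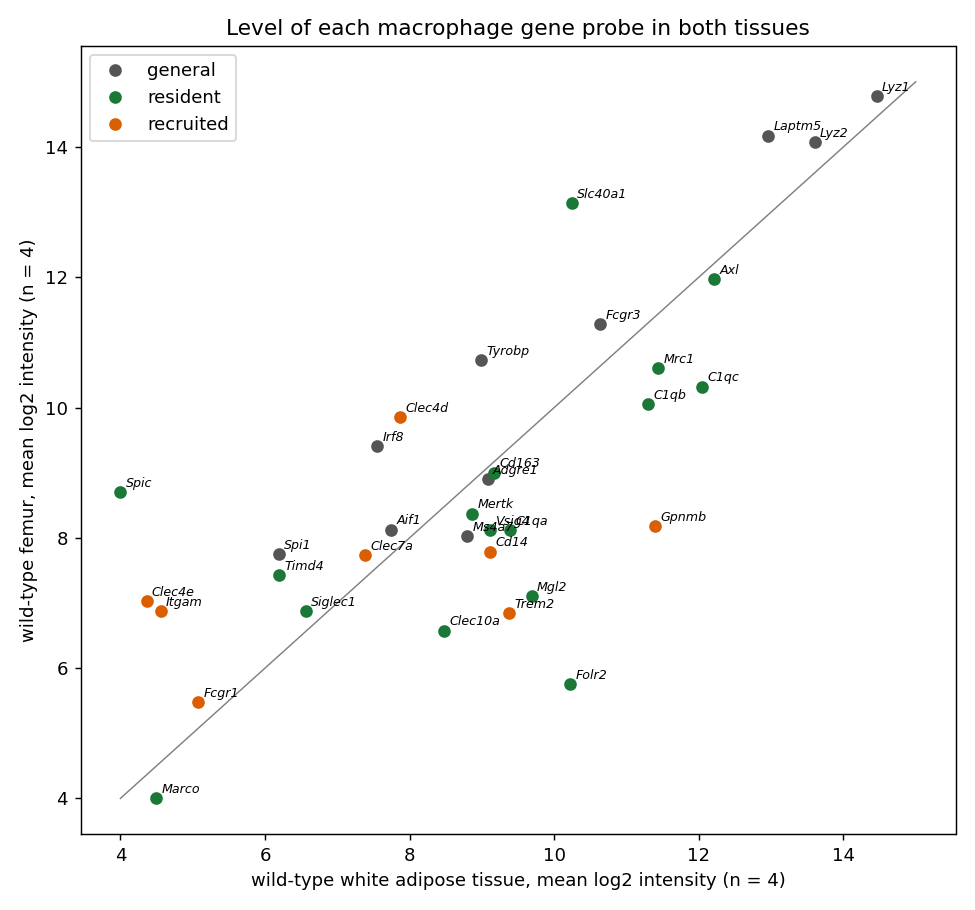
Mean log2 intensity of each of 34 members in wild-type femurs (vertical) against wild-type white adipose tissue (horizontal), each over 4 arrays, with the line of equal level and colours for general, resident and recruited genes. Folr2, Gpnmb and Mgl2 lie far below the line, and Spic, Slc40a1 and Clec4e far above it.

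Growth factors, chemokines, receptors and effectors of macrophages outside the 40 members were also mostly lower in mutant white adipose tissue, and their median in femur was closer to 0. This list of 25 genes was also chosen with earlier results of these data known. In white adipose tissue 18 of the 19 measured averaged lower in mutants, with a median of -0.73, and 10 had an unadjusted p under 0.05, against 12.2% of all genes. Ccl8, a monocyte-attracting chemokine made by resident macrophages, read 178.5 to 242.7 in mutants and 325.5 to 393.2 in wild types, an effect of -0.75 ± 0.12 (adjusted p = 0.108). Cd9, a tetraspanin of lipid-laden macrophages, read 760.8 to 887.4 in mutants and 998.6 to 1682 in wild types (-0.72 ± 0.15, adjusted p = 0.112). Ccl8 and Cd9 were named because they had the smallest p of the list, and for both all 4 wild types were above all mutants. Of the 19 genes, 6 were lower in mutants without overlap, against 7.37% of all genes. In femur 12 of 17 averaged higher in mutants, with a median of 0.16, and 3 had an unadjusted p under 0.05, against 6.53% of all genes. Sirpa, the receptor for the do-not-eat-me signal, read 172.2 to 250.3 in mutant femurs and 44.3 to 162.7 in wild-type femurs (1.34 ± 0.34, adjusted p = 0.177). Csf2ra, a receptor chain for a myeloid growth factor, read 955.4 to 1083 in mutant femurs and 736.8 to 899.4 in wild-type femurs (0.36 ± 0.10, adjusted p = 0.179). Sirpa and Csf2ra were named because they had the smallest p of the list in femur, and neither overlapped between genotypes. Of the 17 genes, 2 were higher in mutants without overlap, against 4.23% of all genes. The femur effect minus the white adipose effect was above 0 for 15 of 16.

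Fcer1g, the signalling chain shared by several Fc receptors and lectins, is among the genes whose probe gave no usable reading: it read at most 3.55 on all 16 arrays. With Msr1 and Itgax it was kept in neither tissue, while Spic and Itgam were kept in femur only and Marco in white adipose tissue only. In all, 32 of the 40 members were kept in white adipose tissue and 33 in femur. A member kept through the group in which it is bright could more easily differ, and this holds for Marco in white adipose tissue as for Spic and Itgam in the level contrast.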

How the data were processed

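Both tissues of 8 mice were hybridised to 16 Illumina bead arrays, 1 array a sample. Per the labels' protocols, RNA was amplified into biotin-labelled cRNA. The values used are each probe's deposited intensity, on a linear scale, from GenomeStudio 2011.1 per the submitters' processing notes. How background and normalization were handled is not given in the sources used here. Across arrays, sorted intensities differed by at most 0.797, and 25.3% to 25.4% of them per array were negative. The 16 signal columns of a table without normalization have names that match no label and were left out.

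Intensities were floored at 16 and taken to log2. Probes with more than 16 on 4 or more of the 8 arrays of a tissue were kept, in both tissues for the difference between tissues and in either for the level. Of 25697 probes, 23978 had 1 gene and 1719 were unnamed, and a gene was given by its brightest kept probe. Mutants were compared with wild types by limma 3.58.1 (R 4.3.3, two-sided, lmFit with eBayes, Benjamini-Hochberg over all kept probes, threshold 0.05). For the difference and the level, all 16 arrays entered 1 fit in which the animal was a random block (consensus correlation -0.09 and -0.07). The fits within each tissue were tested on simulated data, and the fits of all 16 arrays were not. Members and gene lists were chosen with earlier results of these data known.

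Every array's value and full statistics were given for members past the threshold (at most 10 a comparison), the 6 of smallest p in each genotype comparison, Lyz1 and Lyz2, and for the level the 3 largest changes each way. Other genes named are examples. Alternatives covered the floor, the filter, the scale, loess, array weights, probe choice, the block and leaving out animals. Arrays of mutants and wild types with the same replicate number did not deviate together in every pair, so no pairing was used between genotypes.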

Additional observations from a re-analysis of the deposited data

Results flagged for a closer look

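By the brightest probe, the contrast of mutants with wild types differed between femur and white adipose tissue for 7 members in the test of the difference itself. On the log2 scale the femur effect minus the white adipose effect was 1.49 for Lyz2, 1.25 for Ms4a7, 1.03 for Cd14, 1.02 for C1qc, 1.01 for Vsig4, 0.96 for Mrc1 and 0.79 for Mgl2. None passed without any 1 of the mutants, without wild type 1 or 2 or both, or with no filter on dim probes. Over all probes, calls fell from 929 to between 0 and 8 in these omissions and to 178 with no filter. Each of the 7 averaged higher in mutant femurs and lower in mutant white adipose tissue.

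Of 48 groups of 4 arrays checked for a single array far from the others, 2 held one, and chance gives about 1 in 20 groups. Vsig4 was at 8.86 (log2) in wild-type white adipose replicate 3, with the other 3 wild types at 9.18 to 9.20. Clec4e was at 7.94 in mutant femur replicate 1, with the other 3 mutants at 7.69 to 7.73.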

How the results depend on the processing

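Directions were steadier than calls. Over changes of scale, floor, filter and probe and over single omissions, 28 to 30 members averaged lower in white adipose tissue (27 with a floor of 32, 25 of 28 with the stricter filter) and the median lay between -0.49 and -0.30. In femur 27 to 29 averaged higher apart from 26 of 31 in 1 fit of all 16 arrays, and the median over single omissions was 0.28 to 0.47. For single genes, 662 values kept their direction and side of the threshold, 28 moved past it, 60 no longer passed and 3 turned: Clec4e in white adipose tissue to 0.063 without wild types 1 and 2, and Lyz1 in femur to 0.48 with the mean of its probes and 0.015 without wild type 3 and mutant 4.

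In white adipose tissue 3 members (Lyz1, Lyz2 and Mrc1) passed in 1 fit of all 16 arrays and none under the other settings. That fit called 983 probes in all, against 2 in the main fit. The count at an unadjusted p under 0.05 was 9 with a floor of 32, 6 with no filter on dim probes, 9 without wild type 3 and mutant 4, 2 without wild types 1 and 2, and 5 to 21 over single omissions. The lowest count of 5 came without mutant 4, wild type 1 or wild type 2, and the count was 8 without mutant 2 and 9 without mutant 3. In femur 1 member (Ms4a7) passed without wild type 3 and mutant 4, and 0 to 4 did over single omissions, the 4 (C1qc, Mgl2, Ms4a7 and Vsig4) without wild type 3. These 2 omissions called 397 and 675 probes in all, against 1 in the main fit. The femur count at an unadjusted p under 0.05 was 5 without wild types 1 and 2, with a median of 0.22, and 10 to 21 over single omissions, with 10 without mutant 2 and 11 without mutant 3.

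The 7 calls for the difference between tissues became 0 with no filter on dim probes, 12 with probes above 32 on all arrays, 20 with array weights, 11 without wild type 3 and mutant 4, 0 without wild types 1 and 2, and 0 to 17 over single omissions. Without wild types 1 and 2 the median difference was 0.40 and 8 members had an unadjusted p under 0.05. The level contrast called 5 members lower in femur in mutants, against 13 in wild types, with 11306 and 11422 probes called in either direction. The cause of these changes was not tested, except that omissions leave fewer samples.

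Replicate numbers pair the tissues of an animal. With no replicate block the difference had 11 calls, and 1370 over all probes, against 929 with the block. Between genotypes the numbers were not used as pairs: deviations of same-numbered arrays correlated at -0.06 to 0.33 in white adipose tissue and -0.07 to 0.06 in femur. With the number as a replicate block 0 members passed in either tissue, and 19 in white adipose tissue and 16 in femur had an unadjusted p under 0.05. Own numbers correlated best for 3 of 4 in white adipose tissue. With a floor of 32 Clec4e gave no value in white adipose tissue.

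Precision is set by the 4 animals a group. Dim probes such as Clec4e, Marco and Fcgr1 in white adipose tissue lie near the floor of 16, where fold changes are understated, and the normalization hides changes in total RNA.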
